A study of Mus musculus with 13 samples.

Results

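The genes described here encode the machinery that copies DNA and makes its building blocks: 54 genes of the origin recognition complex, the Mcm helicase, the replicative polymerases, the sliding clamp and its loader, Okazaki fragment processing, deoxynucleotide synthesis and replication-coupled chromatin assembly. They were picked by symbol from a table of 21100 genes, for their known roles and with earlier results of these data known. All 54 had a value in every tumor and passed the filter on low counts, and so were among the 14390 genes tested. RNA was sequenced from 13 basal cell carcinomas (BCCs) of female mice, 1 poly(A) library per tumor. The comparison asks how tumors of a transplantable model (Tp-BCC) differ from tumors of the genetically engineered model (GEM-BCC) they derive from.

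The 9 GEM-BCC tumors arose intradermally in 7 Ptch1+/- K14-CreER2 p53fl/fl mice after 3 injections of 300 µg tamoxifen and a single X-ray dose of 4 Gy over 2.05 minutes. The strain is spelled as in the sample labels, and the paper writes K14-CreERT2. GEM2 with GEM3, and GEM7 with GEM8, were taken from a shared mouse. Of the transplanted model 4 tumors, TP1 to TP4, were grown under the skin of the right flank of 4 Ptch1+/-p53fl/fl mice, whose strain label names no Cre, after inoculation of 2000000 BCC cells each. Both strains share a single functional copy of Ptch1, the receptor that holds Hedgehog signaling in check, and a floxed p53. In the GEM model Cre is driven by the keratin 14 promoter, so that p53 is lost in basal keratinocytes and not in the stroma. All Tp-BCC tumors descend, after passage in mice, from a single GEM-BCC tumor, so that these 4 tumors represent 1 parental tumor. Mouse ages are not given in the sources used here. GEM-BCC libraries form batch 1 and Tp-BCC libraries batch 2 in the labels, so that model and batch cannot be told apart. Each GEM-BCC library held between 28075322 and 32629091 counts, each Tp-BCC library between 15388023 and 17494908, and the lowest count of any of the 54 genes in any tumor was 34 (Mcm8 and Orc1). The basal keratinocyte and BCC markers Krt5, Krt14, Krt17, Trp63, Gli1 and Ptch1 were present in every tumor and summed 11853 to 17462 CPM in GEM-BCC (median 14004), and 9092, 16189.9, 8444 and 20736 CPM in TP1 to TP4 (CPM are counts scaled to a common library size). Of these 6 genes 0 passed edgeR's test between models in either direction (3 at an unadjusted p under 0.05, 1 with DESeq2), and after the adjustment for GC content described below 1 was lower (Krt14, log2 fold change −1.03).

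DNA replication starts when the origin recognition complex, Cdc6 and Cdt1 load the ring of Mcm2 to Mcm7 onto DNA, and it is fired when Cdc7 and Dbf4, Cdc45 and the GINS complex turn that ring into an active helicase. Polymerase alpha with primase starts each strand, polymerases delta and epsilon extend it on the Pcna clamp, and Fen1 and Lig1 join the fragments of the lagging strand, while ribonucleotide reductase, thymidylate synthase and thymidine kinase supply deoxynucleotides. Most of these genes are transcribed at the entry into S phase under E2F factors, which is why their RNA is commonly read as a mark of cycling cells, among them the basaloid cells of BCC.

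Before the comparison, the libraries themselves have to be described, because the 4 Tp-BCC libraries did not behave as a uniform group. Over the 54 genes, the level of a gene relative to its mean over all tumors followed the GC content of its transcripts with a Spearman rho across genes of 0.80 in TP2 and 0.70 in TP4, against −0.33 in TP1 and −0.44 in TP3 (genes are not independent replicates). In GEM-BCC the rho was 0.68 for GEM1 and negative for the remaining 8, from −0.66 to −0.05. GC-rich genes thus read high and GC-poor genes low in TP2 and TP4, and so results are given below with the values of all 4 Tp-BCC tumors. Where removing the GC trend of each tumor (GC-adjusted) changes a call, the value or count is also given after that. What TP1 with TP3 and TP2 with TP4 give alone is described together after the roles, and for some genes beside their values.

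Genes that passed the test between the models did so in 1 direction. In edgeR's quasi-likelihood test with Benjamini-Hochberg adjustment over all tested genes, 20 of 54 genes rose at an adjusted p under 0.05 (37.04%), against 11.1% of all tested genes. In each of these 20 the level of 4 of 4 Tp-BCC tumors was above the GEM-BCC median. That describes genes called from the same tumors and is no further test. DESeq2 called 22 of 54 higher, in a fit where 3743 of 14390 genes passed in either direction, 50.3% of them higher. Without TP2 edgeR called 12, of which 11 were among the 20. In that fit 1545 of 14337 genes passed in either direction, 56.5% of them higher. With all tumors, 0 of 54 were lower at an adjusted p under 0.05, against 8.35% of all tested genes. Likewise 0 were lower at an unadjusted p under 0.05 or with DESeq2 in place of edgeR. The median log2 fold change (Tp-BCC over GEM-BCC) was 0.64 over the 54 genes and −0.03 over all tested genes, and 47 of 54 fold changes were positive. These were moderate differences: the largest was 1.53 (Mcm5), so that 0 of 54 genes met the study's criterion of an absolute log2 fold change above 2 in addition, which 5.57% of all tested genes met, and DESeq2 gave 0 as well. The study applied that limit to DESeq2 fold changes after shrinkage, whereas the 5.57% rests on edgeR fold changes. For 11 genes each of the 4 Tp-BCC tumors lay above each of the 9 GEM-BCC tumors, which was so for 5.50% of all tested genes. They were Mcm2, Mcm3, Mcm7, Gins2, Pola2, Pold2, Rfc5, Tyms, Timeless, Chaf1a and Chaf1b, at least 1 from each role but licensing and Okazaki fragment processing. In bulk RNA a larger share of cycling cells and more RNA per cycling cell cannot be told apart.

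**Figure D1:**
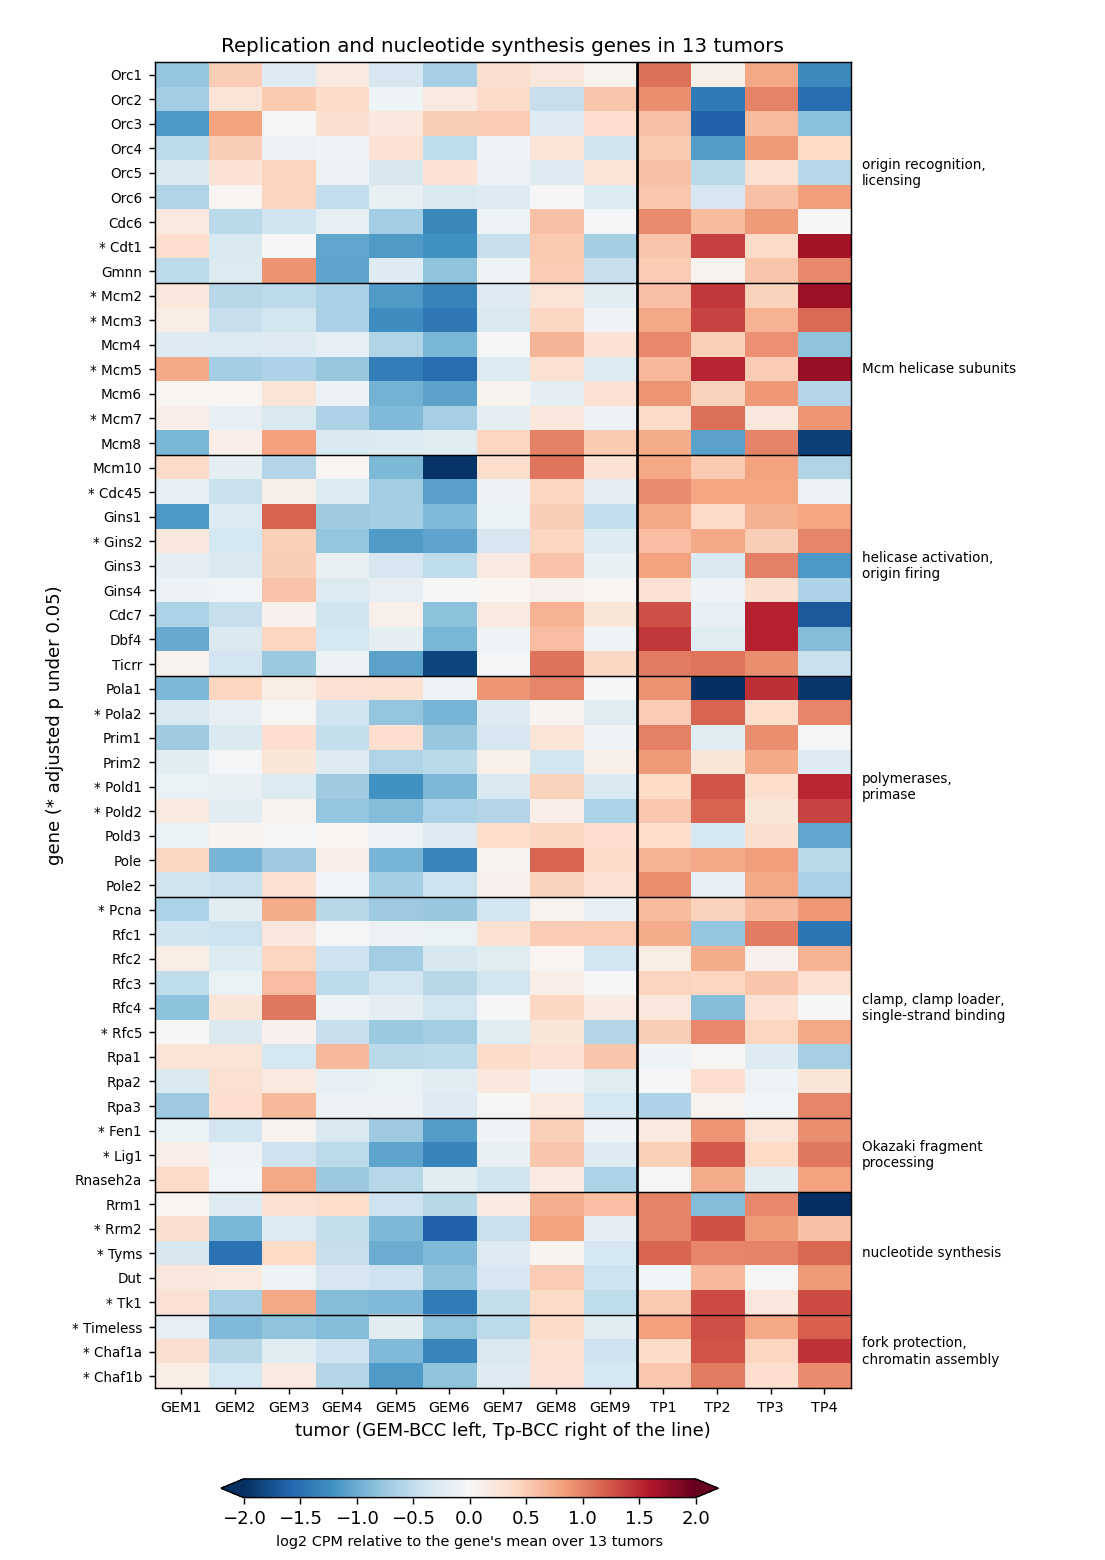
Level of each of the 54 genes (rows, by role) in each of the 13 tumors (columns), as log2 CPM minus the mean of that gene over the 13 tumors, with red above and blue below that mean and an asterisk on the 20 genes with an adjusted p under 0.05. GEM5 and GEM6 are blue in most rows, TP1 and TP3 are red in most rows, and TP2 and TP4 are deep red in some rows and deep blue in others.

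The first step is licensing. Of 9 origin recognition and licensing genes 1 passed the test, Cdt1, the loader that brings the Mcm ring to origins, which also had the highest mean log2 CPM of these genes. Cdt1 stood at 75.4 CPM in TP1, 131 in TP2, 66.7 in TP3 and 162 in TP4, and in GEM-BCC tumors at 21.9 CPM (GEM6) to 73.1 CPM (GEM8) with a median of 37.1. TP2 and TP4 were far above the range of the GEM-BCC tumors, TP1 was just above its top and TP3 inside it. The log2 fold change was 1.41 ± 0.33 (SE, edgeR adjusted p = 0.00888), and TP1 and TP3 alone gave 0.80 and did not pass. Cdc6, the ATPase that works with Cdt1, missed the threshold at 0.84 (edgeR adjusted p = 0.0511), and Gmnn, the inhibitor of Cdt1, had 0.68. The 6 subunits of the origin recognition complex, which marks origins, had log2 fold changes of −0.25 (Orc3) to 0.61 (Orc6), and 0 of 6 passed in either direction with edgeR or DESeq2 (unadjusted, 1, Orc6). After GC adjustment Orc4, Orc6, Cdc6 and Gmnn passed as well, at 0.80, 0.95, 1.05 and 1.06, whereas Orc2 and Orc3 had 0.15 and 0.07. Orc6, the loosely bound subunit, had the largest fold change of the complex both before and after GC adjustment.

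Mcm2 to Mcm7 form the ring-shaped helicase that unwinds DNA, and 4 of the 7 Mcm genes listed here rose, Mcm2, Mcm3, Mcm5 and Mcm7. For Mcm2 the levels were 265 CPM in TP1, 472 in TP2, 245 in TP3 and 581 in TP4, and the GEM-BCC tumors ranged from 70.02 CPM (GEM6) to 212 CPM (GEM8) with a median of 123. Each Tp-BCC tumor was above each GEM-BCC tumor, with TP2 and TP4 well above TP1 and TP3. The log2 fold change of Mcm2 was 1.52 ± 0.30 (SE, edgeR adjusted p = 0.0029). Mcm7, the subunit with the highest mean log2 CPM, measured 262 CPM in TP1, 433 in TP2, 236 in TP3 and 371 in TP4, and 109 CPM (GEM5) to 234 CPM (GEM8) with a median of 175 in GEM-BCC. Here too the models did not overlap, though TP3 exceeded GEM8 by little, and the log2 fold change was 0.94 ± 0.23 (SE, edgeR adjusted p = 0.0104). Mcm5 had 1.53 ± 0.36 (SE, edgeR adjusted p = 0.00944) and Mcm3 1.34 ± 0.29 (edgeR adjusted p = 0.00468). Mcm4 and Mcm6, at 0.63 and 0.63, missed the threshold and passed after GC adjustment, at 1.01 and 0.85. They passed also with TP1 and TP3 alone, at 1.04 and 0.99, where Mcm2 (0.91), Mcm3 (1.07), Mcm5 (0.93) and Mcm7 (0.56) did not. Mcm8, which belongs to a separate complex that acts in recombination, had −0.11 and, after GC adjustment, 0.06, and passed in neither fit.

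The ring holds its 6 subunits in equal number as protein, and their RNA levels were set side by side per length. RNA levels do not measure that number. In GEM-BCC tumors the mean level per kb of the longest transcript was 57.2 ± 14.2 CPM per kb for Mcm7, 43.2 ± 23.2 for Mcm5, 40.4 ± 14.7 for Mcm2, 30.7 ± 8.88 for Mcm6, 28.6 ± 11.1 for Mcm3 and 23.5 ± 8.03 for Mcm4 (SD, n = 9). In Tp-BCC tumors Mcm5 had 125 ± 51.6, Mcm2 116 ± 48.5, Mcm7 109.9 ± 31.3, Mcm3 72.6 ± 15.9, Mcm6 47.4 ± 18.4 and Mcm4 36.4 ± 15.9 CPM per kb (SD, n = 4). Among Tp-BCC tumors the subunits were closest together in TP1 and TP3, where they ran from 48.9 (Mcm4) to 88.3 (Mcm7) CPM per kb and from 47.3 to 79.7. They were farthest apart in TP4, from 14.5 (Mcm4) to 182 (Mcm5). In TP4 the lowest subunits per kb, Mcm4 and Mcm6, were those with the lowest GC content (45.5% and 48.2%), and the highest, Mcm5 and Mcm2, those with the highest (54.6% and 55.5%).

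The genes were also compared in the sequence of their promoters, which played no part in how they were chosen. RefSeq windows of GRCm38.p6, from 250 bases before to 50 bases after a transcript start, were matched by symbol for 46 of the 54 genes (not Gmnn, Mcm4, Gins1, Gins2, Gins4, Prim2, Pole and Rfc2). An E2F-type sequence (TTTCGCGC, TTTGGCGC or TTTCCCGC on either strand) was found for 16 of 46 genes (34.8%), against 2.12% of all 27025 genes with a window. Among genes that rose, Mcm3, Mcm5 and Mcm7 had the most matches, 2 each, and their windows are printed for that reason, 5′ to 3′ on the strand of the gene, with the E2F-type sequences in capitals.
Mcm3 (GRCm38.p6 chr1:20820263-20820562, minus strand): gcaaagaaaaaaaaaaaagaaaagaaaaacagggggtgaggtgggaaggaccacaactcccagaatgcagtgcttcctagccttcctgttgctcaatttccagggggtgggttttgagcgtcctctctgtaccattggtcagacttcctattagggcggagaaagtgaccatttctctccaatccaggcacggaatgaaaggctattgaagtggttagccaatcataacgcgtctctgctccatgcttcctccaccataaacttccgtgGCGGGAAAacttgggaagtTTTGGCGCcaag
Mcm5 (GRCm38.p6 chr8:75109259-75109558, plus strand): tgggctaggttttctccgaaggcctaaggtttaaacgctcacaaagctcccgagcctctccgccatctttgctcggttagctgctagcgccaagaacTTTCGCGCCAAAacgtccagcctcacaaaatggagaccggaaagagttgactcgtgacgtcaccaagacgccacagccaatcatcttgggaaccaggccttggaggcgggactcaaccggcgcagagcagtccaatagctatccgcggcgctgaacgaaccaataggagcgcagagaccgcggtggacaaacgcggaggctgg
Mcm7 (GRCm38.p6 chr5:138171834-138172133, minus strand): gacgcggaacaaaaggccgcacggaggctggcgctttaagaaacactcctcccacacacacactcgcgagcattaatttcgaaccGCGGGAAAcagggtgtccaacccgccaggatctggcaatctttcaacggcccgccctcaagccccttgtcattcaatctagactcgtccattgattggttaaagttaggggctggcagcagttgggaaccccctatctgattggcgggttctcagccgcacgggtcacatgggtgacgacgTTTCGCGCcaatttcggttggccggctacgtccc
Counting the start as position 0, the matches begin at 19 and 38 in Mcm3, at −153 and −149 in Mcm5, where TTTCGCGC and the reverse complement of TTTGGCGC overlap, and at −165 and 16 in Mcm7, where the second match shares its last base with a CCAAT sequence. Each of the 3 windows also holds 3 matches to CCAAT, and that of Mcm7 a CHR match (TTCGAA, at −173). Mcm7 has 2 windows, and the other, which is not printed, holds 0 E2F-type sequences. The share with a match was similar among genes that rose and genes that did not: 6 of 19 of the former (31.6%) and 10 of 27 of the latter (37.04%) held one. The CHR sequence of genes expressed late in the cycle (TTTGAA or TTCGAA) was found for 9 of 46 (19.6%), close to the 21.7% of all genes, and CCAAT for 27 of 46 (58.7%, all genes 41.1%). Among genes that rose and genes that did not, CHR was found for 5 of 19 (26.3%) and 4 of 27 (14.8%). For CCAAT these shares were 9 of 19 (47.4%) and 18 of 27 (66.7%). Differences in these shares were not tested. The E2F-type share was not particular to the 54 genes: it was 8 of 24 (33.3%) in further replication genes and 9 of 23 (39.1%) in genes of cell cycle entry. The shares were the reverse in 40 genes of mitosis, with CHR for 26 of 33 (78.8%) and E2F-type sequences for 3 of 33 (9.09%) of those with a window. In further genes of nucleotide synthesis and turnover the E2F-type share was 2 of 29 (6.90%). Among the 54 genes, Rrm1, Rrm2, Tyms, Dut and Tk1 had 0 E2F-type matches each. A match is a run of letters and no measured binding site.

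At the next step, origin firing, 2 of 9 genes of helicase activation rose, Cdc45 and Gins2, both parts of the active helicase. Cdc45 was measured at 52.1 CPM in TP1, 46.7 in TP2, 46.7 in TP3 and 24.9 in TP4, against 12.6 CPM (GEM6) to 36.2 CPM (GEM8) with a median of 23.7 in GEM-BCC. TP1, TP2 and TP3 lay above each GEM-BCC tumor, and TP4 lay inside their range. Its log2 fold change was 0.87 ± 0.26 (SE, edgeR adjusted p = 0.0279). The call was lost when TP1, TP2 or TP3 was left out, at log2 fold changes of 0.77, 0.81 and 0.83. Gins2, with the highest mean log2 CPM of these 9, had 72.9 CPM in TP1, 80.7 in TP2, 67.04 in TP3 and 93.7 in TP4, and 21.7 CPM (GEM5) to 66.4 CPM (GEM3) with a median of 37.8 in GEM-BCC tumors. The models did not overlap, but TP3 and GEM3 were nearly equal, and the log2 fold change of 0.93 ± 0.29 (SE, edgeR adjusted p = 0.0348) was close to the threshold. This call was lost without any of GEM2, GEM4, GEM6, GEM7, GEM9, TP1, TP2 or TP4, at log2 fold changes of 0.79 to 0.96. The other GINS subunits had 0.79 (Gins1), 0.33 (Gins3) and −0.01 (Gins4). After GC adjustment Gins1 passed (1.32) and Gins4 did not (0.03). Cdc7 and Dbf4, the kinase and its activating subunit that fire origins, were split sharply within Tp-BCC: Dbf4 stood at 55.6 CPM in TP1, 17.5 in TP2, 61.3 in TP3 and 11.4 in TP4, and Cdc7 at 42.4 CPM in TP1, 15.4 in TP2, 51.1 in TP3 and 5.35 in TP4. TP1 and TP3 were above each GEM-BCC tumor for both genes, and TP2 and TP4 were not. For both, TP1 and TP3 alone passed (1.61 and 1.47), the full comparison missed the threshold (0.93 and 0.77), and the GC-adjusted one passed (1.17 and 0.92). Mcm10 and Ticrr, which also act in helicase activation and origin firing, had 0.43 and 0.84 and did not pass before or after GC adjustment.

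Of 9 polymerase and primase genes 3 rose: Pola2, the regulatory subunit of polymerase alpha, and Pold1 and Pold2, the catalytic and the small subunit of polymerase delta. Pola2 had 90.1 CPM in TP1, 142 in TP2, 80.9 in TP3 and 124 in TP4, and 33.4 CPM (GEM6) to 65.7 CPM (GEM8) with a median of 53.1 in GEM-BCC tumors. The models were clearly apart, and the log2 fold change was 1.08 ± 0.21 (SE, edgeR adjusted p = 0.00275). Pold1, with the highest mean log2 CPM, was at 135 CPM in TP1, 247 in TP2, 131 in TP3 and 294 in TP4, against 44.5 CPM (GEM5) to 141 CPM (GEM8) with a median of 83.1 in GEM-BCC. TP2 and TP4 were above each GEM-BCC tumor, whereas TP1 and TP3 were below GEM8 and above the rest. Its log2 fold change was 1.29 ± 0.28 (SE, edgeR adjusted p = 0.00558), and that of Pold2 1.21 ± 0.25 (edgeR adjusted p = 0.00439). The catalytic subunit of polymerase alpha did not follow its partner: Pola1 stood at 33.03 CPM in TP1, 3.28 in TP2, 48.5 in TP3 and 4.50 in TP4, and at 9.44 CPM (GEM1) to 34.6 CPM (GEM8) with a median of 21.4 in GEM-BCC. TP3 was above each GEM-BCC tumor and TP1 above all but GEM8, whereas TP2 and TP4 were below the lowest GEM-BCC tumor. The log2 fold change was 0.03 over all 4 (edgeR adjusted p = 0.974), −0.01 after GC adjustment, and −2.49 for TP2 and TP4 alone, which passed. Pold3, an accessory subunit of polymerase delta, had −0.17 and 0.03 after GC adjustment, unlike Pold1 and Pold2. The primase genes Prim1 and Prim2 (0.66 and 0.61) passed after GC adjustment (1.12 and 0.89), as did Pole2 (0.81), and Pole, the catalytic subunit of polymerase epsilon, did not (0.53 and 0.61).

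Of 9 genes of the clamp, its loader and single-strand binding 2 rose, Pcna, the ring that holds polymerases on DNA, and Rfc5, a subunit of the complex that loads it. Pcna was measured at 274 CPM in TP1, 241 in TP2, 276 in TP3 and 322 in TP4, and at 104 CPM (GEM6) to 293 CPM (GEM3) with a median of 135 in GEM-BCC. The 4 Tp-BCC tumors were close together in CPM, and GEM3 alone among the GEM-BCC tumors reached their range. Pcna had a log2 fold change of 0.88 ± 0.25 (SE, edgeR adjusted p = 0.0241). After GC adjustment it was 1.60, and the Tp-BCC tumors were no longer close: relative log2 CPM (log2 CPM minus the mean of the gene) was 0.34 in TP1, 1.21 in TP2, 0.25 in TP3 and 2.20 in TP4. Rfc5 had 70.8 CPM in TP1, 97.7 in TP2, 67.6 in TP3 and 85.9 in TP4, and 29.9 CPM (GEM5) to 59.01 CPM (GEM8) with a median of 41.1 in GEM-BCC. There was no overlap, and the log2 fold change was 0.94 ± 0.21 (SE, edgeR adjusted p = 0.00628). Rfc2 (0.60, edgeR adjusted p = 0.0604) and Rfc3 (0.58, edgeR adjusted p = 0.0782) missed the threshold and passed after GC adjustment (0.72 and 0.92). The large subunit Rfc1 and Rfc4 did not pass, at 0.14 and −0.15 before and 0.32 and 0.47 after. The trimer that coats single-stranded DNA had no subunit that passed without GC adjustment. Its large subunit Rpa1 had the lowest fold change of the 54 genes, −0.39 ± 0.25 (SE, edgeR adjusted p = 0.283), with 133 CPM in TP1, 143 in TP2, 117 in TP3 and 88.96 in TP4 and 96.6 CPM (GEM5) to 220.4 CPM (GEM4) with a median of 169.6 in GEM-BCC. TP4 was below each GEM-BCC tumor, and TP1, TP2 and TP3 were inside their range and below its median. Rpa2 had 0.16, and neither passed after GC adjustment (−0.16 and 0.12). Under each of the 27 alternative fits Rpa1 had a negative fold change, −0.51 to −0.16, with adjusted p-values of 0.167 to 0.653. The small and GC-poor Rpa3 (0.20) passed after GC adjustment at 1.18. Its SD of log2 CPM among the Tp-BCC tumors was 0.66 before and 1.56 after the adjustment, which thus moved these tumors apart.

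Among genes that process Okazaki fragments, the ligase gene Lig1 and the flap nuclease gene Fen1 rose, and Rnaseh2a, the catalytic subunit of the nuclease that removes RNA from DNA, did not pass (0.46). Lig1, with the highest mean log2 CPM of the 3, stood at 153 CPM in TP1, 256 in TP2, 145 in TP3 and 228 in TP4, and at 43.4 CPM (GEM6) to 161 CPM (GEM8) with a median of 91.2 in GEM-BCC tumors. TP2 and TP4 were above the GEM-BCC range, and TP1 and TP3 were below GEM8 and above the rest. Its log2 fold change was 1.09 ± 0.29 (SE, edgeR adjusted p = 0.0164), and that of Fen1 0.80 ± 0.25 (edgeR adjusted p = 0.0385). The call of Lig1 was lost without TP2 or TP4, at 0.91 and 0.96. That of Fen1 was lost without any of GEM2, GEM4, GEM5, GEM7, GEM9, TP2 or TP4.

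Of 5 genes of nucleotide synthesis 3 rose: Tyms, which makes thymidylate from deoxyuridylate, Tk1, the S-phase thymidine kinase, and Rrm2, the regulated small subunit of ribonucleotide reductase. Tyms had 103 CPM in TP1, 89.9 in TP2, 91.3 in TP3 and 101 in TP4, and 16.3 CPM (GEM2) to 60.4 CPM (GEM3) with a median of 36.1 in GEM-BCC. The Tp-BCC tumors formed a narrow band well above each GEM-BCC tumor. The log2 fold change was 1.45 ± 0.27 (SE, edgeR adjusted p = 0.00173), and it was about the same with TP1 and TP3 alone (1.46) and with TP2 and TP4 alone (1.45). Tyms is the 1 gene of the 54 with fractional expected counts, in 10 of 13 tumors, as happens when reads also fit another gene, and its level carries that uncertainty. Rrm1, the large subunit of ribonucleotide reductase and the gene with the highest mean log2 CPM of the 5, was at 224 CPM in TP1, 61.7 in TP2, 221 in TP3 and 27.6 in TP4, and at 76.99 CPM (GEM6) to 187 CPM (GEM8) with a median of 127 in GEM-BCC. TP1 and TP3 were above and TP2 and TP4 below each GEM-BCC tumor. The log2 fold change over all tumors was 0.08 ± 0.42 (SE, edgeR adjusted p = 0.918), and it was 0.81 for TP1 with TP3 and −1.50 for TP2 with TP4, of which only the latter passed. Its partner Rrm2 was at 135 CPM in TP1, 164 in TP2, 122 in TP3 and 102 in TP4, and at 22.1 CPM (GEM6) to 119 CPM (GEM8) with a median of 49.7 in GEM-BCC. TP1, TP2 and TP3 were above each GEM-BCC tumor, TP4 was above all but GEM8, and the log2 fold change was 1.20 ± 0.33 (SE, edgeR adjusted p = 0.02). The 2 subunits have transcripts of similar GC content, 44.4% and 46.01%. After GC adjustment their log2 fold changes were 0.21 for Rrm1, which did not pass, and 1.76 for Rrm2, which did. With the adjustment the SD of log2 CPM among Tp-BCC tumors went from 1.48 to 0.60 for Rrm1 and from 0.28 to 0.74 for Rrm2. For Rrm2 the adjustment thus moved these tumors apart. Tk1 rose by a log2 fold change of 1.12 ± 0.35 (SE, edgeR adjusted p = 0.0365) and was the 1 gene whose call was lost after GC adjustment (0.85). Its adjusted p-values over the alternative fits were 0.00988 to 0.511. Dut, which clears deoxyuridine triphosphate, had 0.54 and did not pass.

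All 3 genes of fork protection and chromatin assembly rose: Timeless, which keeps the polymerases and the helicase together at the fork, and Chaf1a and Chaf1b, which place histones on new DNA. Timeless had the smallest adjusted p of the 54 genes, with 85.1 CPM in TP1, 118 in TP2, 81.7 in TP3 and 109.8 in TP4 and with 25.9 CPM (GEM2) to 62.2 CPM (GEM8) with a median of 33.4 in GEM-BCC. Each Tp-BCC tumor was above each GEM-BCC tumor, and the log2 fold change was 1.43 ± 0.23 (SE, edgeR adjusted p = 0.000774). Timeless was past the threshold in 26 of 27 alternative fits, all but the fit of 8 tumors with a replicate block. Chaf1a, with the highest mean log2 CPM of the 3, was measured at 89.8 CPM in TP1, 166 in TP2, 93.2 in TP3 and 189.9 in TP4, and at 27.8 CPM (GEM6) to 86.7 CPM (GEM1) with a median of 52.4 in GEM-BCC. TP1 and TP3 were just above GEM1 and GEM8, the highest GEM-BCC tumors, and TP2 and TP4 were far above. The log2 fold changes were 1.26 ± 0.28 for Chaf1a (SE, edgeR adjusted p = 0.00678) and 1.0 ± 0.25 for Chaf1b (edgeR adjusted p = 0.0127). With TP1 and TP3 alone neither passed (0.71 and 0.70, against 1.67 and 1.25 with TP2 and TP4).

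**Figure D2:**
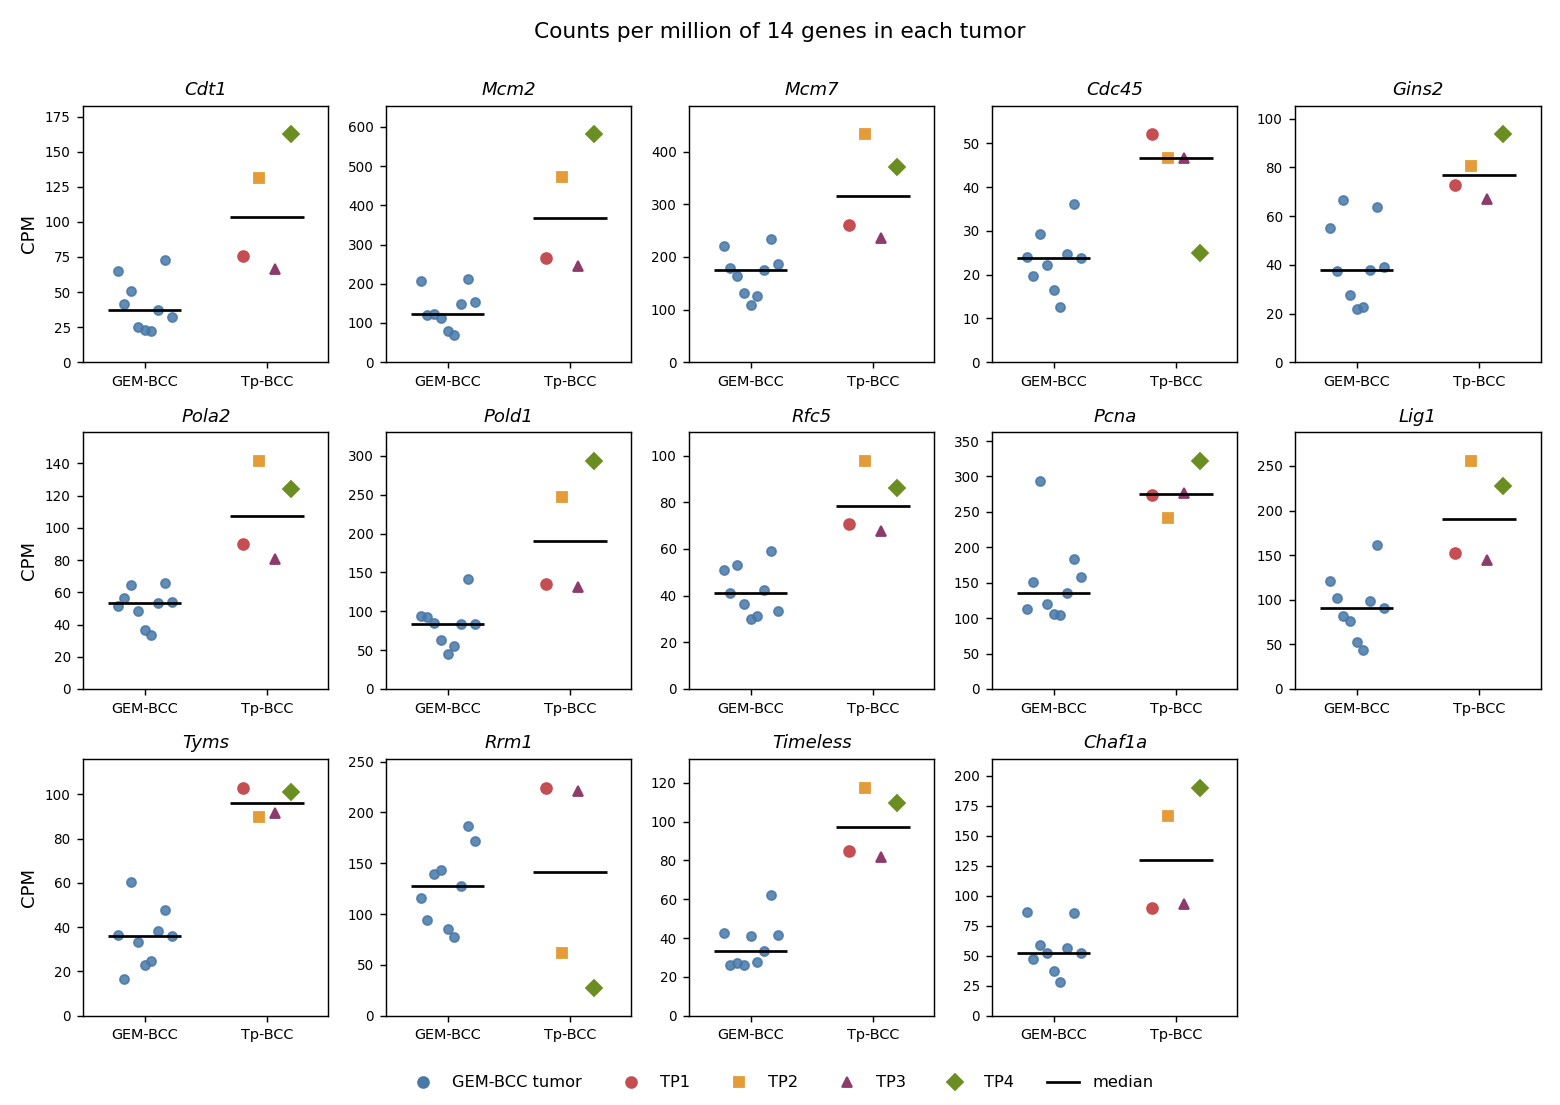
CPM (linear axis from 0) in each of the 13 tumors for 14 genes, the one with the smallest adjusted p and the one with the highest mean log2 CPM in each role; circles are GEM-BCC tumors, the other symbols TP1 to TP4, and bars are medians. Tyms and Pcna are close together in the 4 Tp-BCC tumors, Cdt1, Mcm2 and Pold1 are highest in TP2 and TP4, and Rrm1 is high in TP1 and TP3 and low in TP2 and TP4.

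The split within Tp-BCC differed from gene to gene. The difference between the mean log2 CPM of TP2 and TP4 and that of TP1 and TP3 was −3.36 for Pola1, −2.43 for Rrm1, −2.43 for Orc2 and −2.35 for Cdc7 at the lower end, and 1.05 for Mcm5, 1.04 for Mcm2, 1.04 for Cdt1 and 1.01 for Pold1 at the upper end. Across the 54 genes this difference had a Spearman rho of 0.77 with GC content and of −0.16 with transcript length, as a description of these 4 libraries, and over 14099 tested genes the rho with GC content was 0.79. Some genes had almost no split, among them Tyms (−0.02) and Gmnn (−0.02). Others stood off the trend with GC content: Pcna and Rrm2, with 45.3% and 46.01% GC, had differences of 0.02 and 0.01, and Rpa3, with 40.4%, had 0.86.

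**Figure D3:**
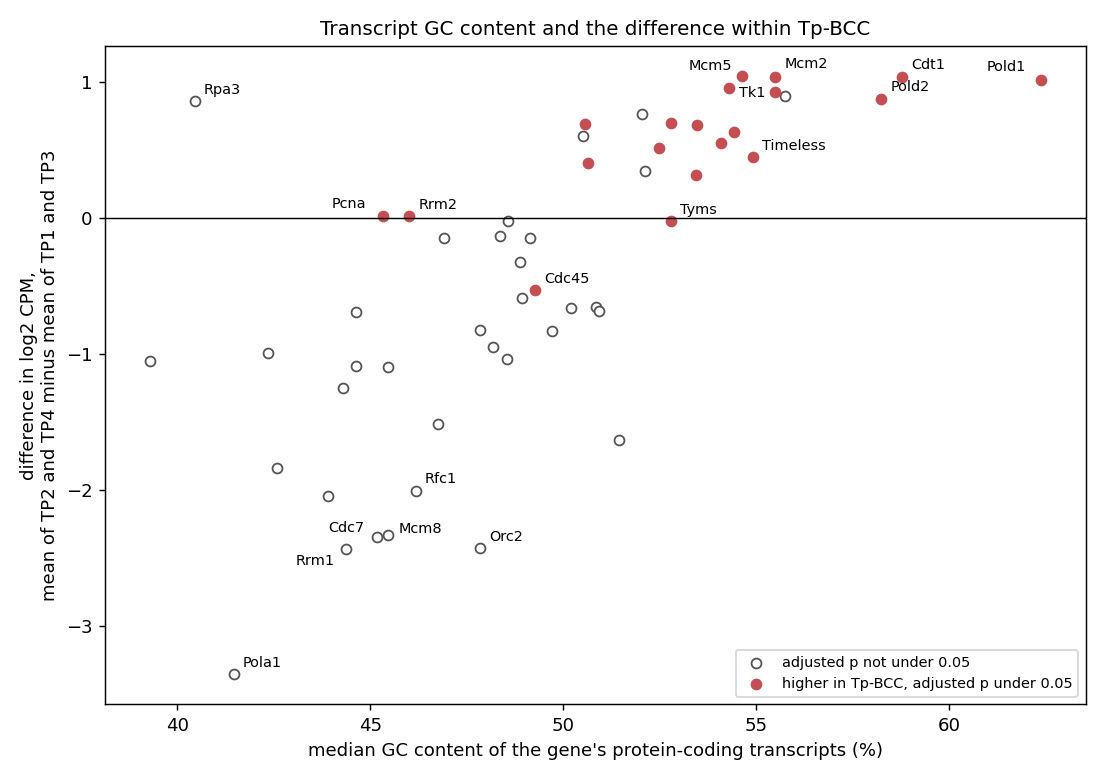
Each point is 1 of the 54 genes; the x axis is the median GC content of its protein-coding transcripts in percent, and the y axis the difference in log2 CPM between the means of TP2 with TP4 and of TP1 with TP3. Filled points are the 20 genes that rose in Tp-BCC; most of them lie at the right, among GC-rich genes, where TP2 and TP4 exceed TP1 and TP3.

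The calls were also counted by GC content. Of the 18 genes with the lowest GC content (39.3% to 46.9%) 2 rose, of the 18 in the middle 3 and of the 18 with the highest (52.04% to 62.4%) 15, with median log2 fold changes of 0.38, 0.61 and 1.17. All tested genes with a GC value were divided at the same limits between groups, and of these 4.89%, 7.005% and 16.5% rose. With the GC trend of each tumor removed, the 3 medians were 0.81, 0.86 and 0.91, and 10, 10 and 14 genes rose. In all, 34 of 54 genes rose in the GC-adjusted fit, against 15.0% of all tested genes, and edgeR called 0 lower (0 also unadjusted; DESeq2, without GC adjustment, 0), against 13.3%. Of the 20 genes called without adjustment 19 were called with it, and 15 were added, with Dbf4, Gins1, Prim1, Rpa3 and Mcm4 among them. With the adjustment the SD of log2 CPM among Tp-BCC tumors grew for Gins1 (0.19 to 0.69) and Rpa3 (0.66 to 1.56). It fell for Dbf4 (1.21 to 0.28), Prim1 (0.63 to 0.37) and Mcm4 (0.82 to 0.33). Of the other added genes, Orc6, Gmnn, Rfc2 and Rfc3 also had a larger SD after adjustment, and the rest a smaller one. The 19 genes called in neither fit were Orc1, Orc2, Orc3, Orc5, Mcm8, Mcm10, Gins3, Gins4, Ticrr, Pola1, Pold3, Pole, Rfc1, Rfc4, Rpa1, Rpa2, Rnaseh2a, Rrm1 and Dut. The adjustment also takes away any difference between models that follows GC content.

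Set against all GEM-BCC tumors, TP1 and TP3 alone had 10 of 54 genes higher, against 5.87% of all genes tested with these tumors, and 0 lower with edgeR (0 also unadjusted), against 4.51%. TP2 and TP4 alone had 21 of 54 higher, against 19.1% of all genes tested, and 7 of 54 lower, a smaller share than the 23.8% of all genes. Of the 20 genes called with all 4 tumors, TP1 and TP3 alone kept 3 (Cdc45, Tyms and Timeless) and TP2 and TP4 alone kept 19, all but Cdc45 (0.63), so that 17 of the 20 calls were not made without TP2 and TP4. With TP1 and TP3 alone these 17 genes had positive log2 fold changes of 0.42 to 1.18, among them Pola2 (0.73), Pold1 (0.70), Pold2 (0.71), Pcna (0.86), Lig1 (0.70), Fen1 (0.42) and Tk1 (0.59). The other 7 genes that TP1 and TP3 alone called were Cdc6, Mcm4, Mcm6, Cdc7, Dbf4, Prim1 and Prim2. Tyms and Timeless were in both sets of higher genes, 2 of 10 and 2 of 21. The difference between the pairs of tumors was not tested. TP1 and TP3 were closer to each other than any other pair of tumors within a model, as given with the processing. The 7 genes lower in TP2 and TP4 were Orc2, Orc3, Mcm8, Pola1, Pold3, Rfc1 and Rrm1, with log2 fold changes of −2.49 (Pola1) to −0.75 (Pold3), and with TP1 and TP3 their fold changes were 0.24 (Pold3) to 0.89 (Pola1). These genes have GC contents of 41.5% to 48.5%.

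**Figure D4:**
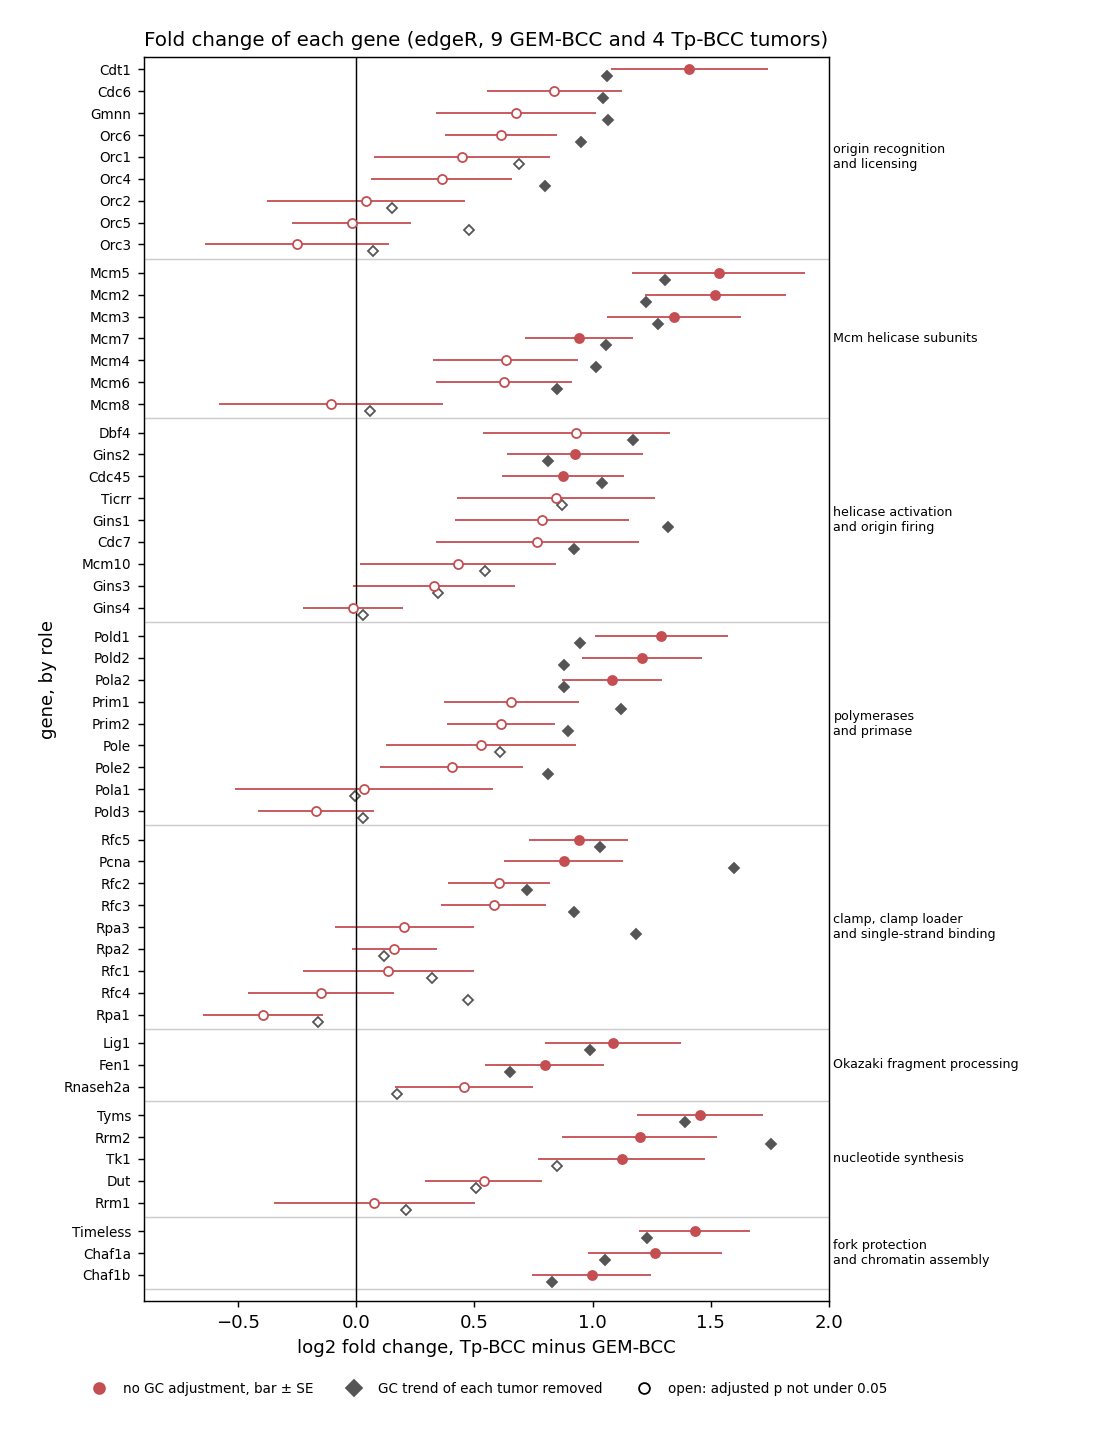
Log2 fold change (Tp-BCC minus GEM-BCC) of each of the 54 genes, ordered by role and then by size; circles with bars are the fitted value ± SE, diamonds the value after the GC trend of each tumor was removed, and open symbols have an adjusted p not under 0.05. The diamonds lie between −0.16 (Rpa1) and 1.76 (Rrm2), and those of Orc2, Orc3, Mcm8, Gins4, Pola1, Pold3, Rpa1, Rpa2 and Rnaseh2a lie near 0.

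Among the GEM-BCC tumors the 54 genes varied about as much as other genes, with a median SD of log2 CPM of 0.47, against 0.44 over all tested genes (n = 9). The highest and lowest values fell to few tumors. GEM8 had the highest level of 28 genes and GEM3 of 15, and GEM6 had the lowest level of 25, GEM1 of 12 and GEM5 of 11. As the mean over the 54 genes of relative log2 CPM (log2 CPM minus the mean of that gene over the 13 tumors), the tumors stood at 0.36 (GEM8), 0.13 (GEM3), −0.07 (GEM7), −0.07 (GEM9), −0.19 (GEM1), −0.20 (GEM2), −0.32 (GEM4), −0.56 (GEM5) and −0.75 (GEM6), and at 0.62, 0.33, 0.60 and 0.14 in TP1 to TP4. GEM8 thus lay above TP2 and TP4. With the GC trend removed GEM8 had 0.26 and the Tp-BCC tumors 0.53, 0.54, 0.47 and 0.64, and the models no longer overlapped. Tumors that share a mouse differed in this mean by 0.43 (GEM8 above GEM7) and 0.33 (GEM3 above GEM2).

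The same mean was taken over GC-poor and GC-rich genes apart. For the 18 genes of lowest GC content it was 0.77 and 0.84 in TP1 and TP3 and −0.41 and −0.58 in TP2 and TP4. For the 18 of highest GC content it was 0.48, 0.37, 1.10 and 1.17 in the same order. In GEM5 and GEM6, the lowest tumors, the GC-rich genes stood at −0.88 and −1.0 and the GC-poor genes at −0.24 and −0.51, so that both were below the mean there.

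**Figure D5:**
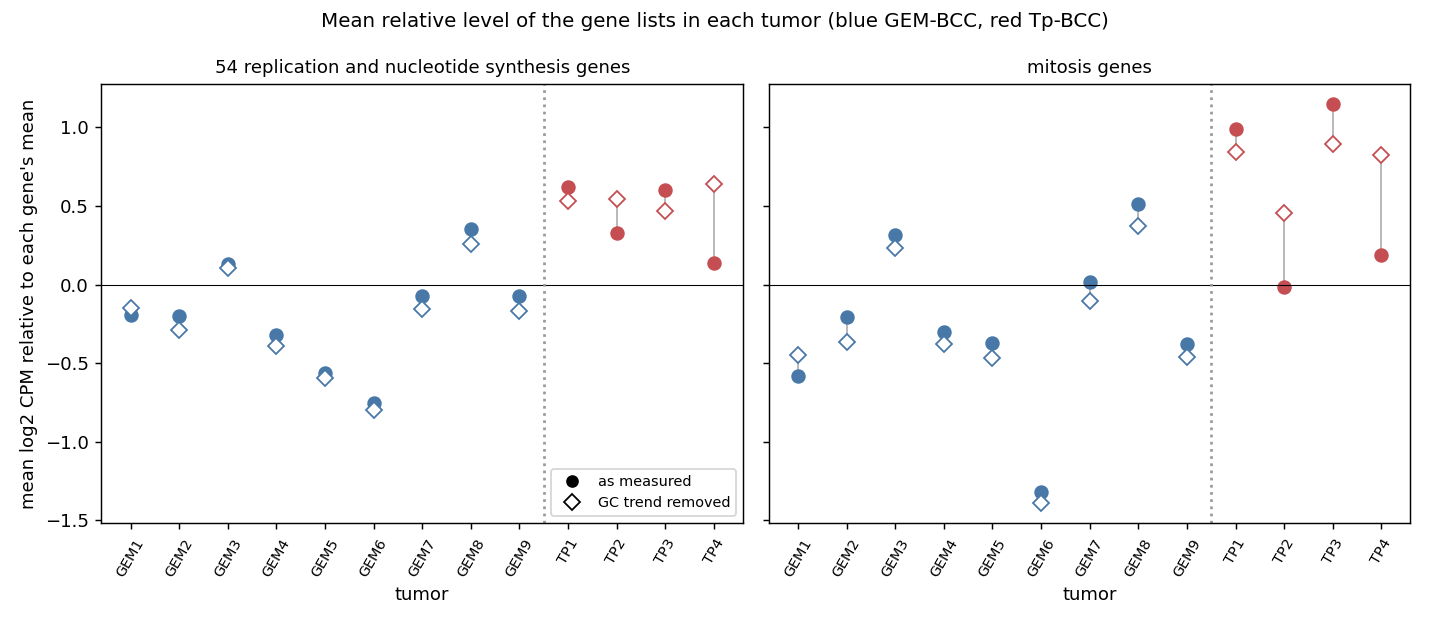
Mean relative log2 CPM (log2 CPM minus the mean of that gene over the 13 tumors) in each tumor (blue GEM-BCC, red Tp-BCC), for the 54 genes on the left and 40 mitosis genes on the right; filled circles are as measured and open diamonds have the GC trend of the tumor removed. GEM6 is lowest and GEM8 highest of the GEM-BCC tumors in both panels, and the diamonds of the 4 Tp-BCC tumors lie above all GEM-BCC diamonds.

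Further genes of the pathway, taken from a list of replication genes, came next. Of 32 such genes 8 rose and 0 were lower with edgeR (0 unadjusted, 0 with DESeq2), with a median log2 fold change of 0.39. After GC adjustment 17 of 32 rose. The shares of all tested genes that rose, 11.1% before and 15.0% after GC adjustment, apply to this list and to those that follow. The smallest adjusted p among them belonged to the histone chaperone gene Asf1b (1.99 ± 0.27, SE, edgeR adjusted p = 0.000186), with 71.5 CPM in TP1, 78.2 in TP2, 52.3 in TP3 and 80.03 in TP4 against 7.60 CPM (GEM6) to 26.1 CPM (GEM3) with a median of 16.9 in GEM-BCC. The models were far apart. Chtf18, part of an alternative clamp loader, had 1.64 ± 0.29 (edgeR adjusted p = 0.00143) and the helicase gene Recql4 1.47 ± 0.29 (edgeR adjusted p = 0.00302). The maintenance methyltransferase gene Dnmt1, among the 2 with the highest mean log2 CPM, rose by 1.11 (edgeR adjusted p = 0.0118), and the histone chaperone gene Ssrp1, the other, had 0.40 and passed after GC adjustment only (0.45). The other 4 that rose were Uhrf1, Rnaseh2b, Lrwd1 and Exo1.

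Of 33 further genes of nucleotide synthesis and turnover 5 rose and 1 fell, with a median of 0.41, a share of higher genes near that of all tested genes. After GC adjustment 11 rose and 1 fell. The smallest adjusted p was not that of a synthetic enzyme: Samhd1, which breaks down deoxynucleoside triphosphates, rose by 1.06 ± 0.17 (SE, edgeR adjusted p = 0.000633), from 40.04 CPM (GEM2) to 63.7 CPM (GEM1) with a median of 55.9 in GEM-BCC to 119 CPM in TP1, 115 in TP2, 109 in TP3 and 92.5 in TP4. Again the models did not overlap. Shmt2, which feeds mitochondrial one-carbon metabolism, had 1.297 ± 0.26 (edgeR adjusted p = 0.00309) and Impdh1, an enzyme of guanine nucleotide synthesis, 1.14 ± 0.26 (edgeR adjusted p = 0.007). Dctd, which supplies the substrate of Tyms, and Ppat, the entry enzyme of purine synthesis, were the others that rose (1.07 and 0.88). The 1 gene that fell was the guanylate kinase gene Guk1 (−0.89 ± 0.27, SE, edgeR adjusted p = 0.0321). Cad and Nme2, with the highest mean log2 CPM, had 0.99 and 0.61 and did not pass.

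Genes that act before and after replication in the cell cycle were compared as well. Of 40 mitosis genes 18 rose and 0 were lower with edgeR (0 unadjusted, 0 with DESeq2; median 0.99), with Aurka (1.91 ± 0.26, SE, edgeR adjusted p = 0.000148), Ube2c (2.00, edgeR adjusted p = 0.000406) and Plk1 (2.27, edgeR adjusted p = 0.000498) first. After GC adjustment 29 of 40 rose. Of the 2 with the highest mean log2 CPM Bub3 rose (0.60, edgeR adjusted p = 0.0284) and Espl1 did not pass (0.37). The mean relative log2 CPM of the 40 genes had the same lowest and highest GEM-BCC tumors as that of the replication genes, at −1.32 in GEM6 and 0.51 in GEM8, and in TP1 to TP4 it was 0.99, −0.01, 1.15 and 0.19. Of 30 genes of cell cycle entry 12 rose and 1 fell (median 0.63), and after GC adjustment 14 rose and 2 fell, Ccnd2 in addition. Myc had 1.79 ± 0.24 (SE, edgeR adjusted p = 0.000148), E2f4 1.27 (edgeR adjusted p = 0.00054) and the Cdk inhibitor gene Cdkn2c 1.10 (edgeR adjusted p = 0.00177), and Ccnd1 and Cdk4, with the highest mean log2 CPM, rose by 0.86 and 1.08 (edgeR adjusted p = 0.00957 and 0.00248). The gene that fell in both fits was Cdkn1a, a p53 target whose product binds Pcna and inhibits Cdks (−1.56 ± 0.37, SE, edgeR adjusted p = 0.0101), with 14.3 CPM in TP1, 25.1 in TP2, 11.8 in TP3 and 31.98 in TP4 against 35.4 CPM (GEM2) to 102 CPM (GEM1) with a median of 49.6 in GEM-BCC.

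Markers of other cell types also differed between the models. Suprabasal keratinocyte markers, led by Dsg1a, summed 145 to 527 CPM in GEM-BCC (median 293), and 87.8, 64.8, 103 and 59.4 CPM in TP1 to TP4, and 2 of 7 tested fell (Krt10 and Dsg1a; after GC adjustment also Krt1), while Flg, with no value in a model, was not tested. Endothelial markers, led by Cdh5, summed 79.2 to 220.0 CPM in GEM-BCC (median 161), and 298, 318, 296 and 231 CPM in TP1 to TP4, and 3 of 6 rose (Cdh5, Kdr and Emcn). Of 8 fibroblast markers 3 rose (Pdgfra, Pdgfrb and Fap) and 1 fell (Col1a1), and their sum, led by Col1a2, came to 12063 to 49102 CPM in GEM-BCC (median 28573), and 15698, 23394, 15968 and 28344 CPM in TP1 to TP4. Macrophage markers, led by Csf1r, summed 53.4 to 266 CPM in GEM-BCC (median 121), and 174, 179.6, 168 and 304 CPM in TP1 to TP4, and 1 of 8 rose (Cd68). Among the endothelial, fibroblast and macrophage markers only Col1a1 fell (after GC adjustment also Col1a2), and the endothelial sum was higher in each Tp-BCC tumor than in each GEM-BCC tumor. Adipocyte markers, led by Fabp4, summed 0.400 to 3.26 CPM in GEM-BCC (median 0.986), and 10.8, 84.3, 10.7 and 15.1 CPM in TP1 to TP4, and 3 of 3 tested rose. Skeletal muscle markers, led by Acta1, summed 1.87 to 6.07 CPM in GEM-BCC (median 2.94), and 3.12, 10.3, 3.83 and 127 CPM in TP1 to TP4, and 0 of 4 tested passed with edgeR (3 unadjusted, 1 with DESeq2), and after GC adjustment 1 rose (Ttn, log2 fold change 1.87). TP2 stood out for adipocyte and TP4 for muscle markers. T cell markers, led by Cd4, summed 0.429 to 3.92 CPM in GEM-BCC (median 2.85), and 1.12, 1.67, 1.38 and 1.999 CPM in TP1 to TP4. Cd3e was at no more than 3 counts in any Tp-BCC tumor, Trac was without a value, and only Cd4 was tested, which did not pass. In GEM-BCC the counts of Cd4 and Cd3e were 97 and 5 in GEM1 and 85 and 1 in GEM3. They were 60 and 21 in GEM5 and 78 and 16 in GEM6, so that the sum did not follow Cd3e throughout. Neutrophil markers, led by Csf3r, summed 0.923 to 8.11 CPM in GEM-BCC (median 2.75), and 1.24, 1.48, 1.68 and 2.50 CPM in TP1 to TP4, and 2 of 3 tested fell (S100a8 and S100a9), of which neither passed after GC adjustment (−3.17 and −2.67). None of these lists separates the cells that replicate DNA from those that do not, and the part of cell composition in the differences above was not tested.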

How the data were processed

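Poly(A) RNA of 13 tumors had been cleaned by the authors with SOAPnuke, aligned with Bowtie2 2.3.4.3 to mouse transcripts of GRCm39 and counted with RSEM 1.3.1 (versions from the submitters' processing notes), and the deposited values are RSEM expected counts per gene symbol, not normalized. They were rounded to whole numbers here. A gene was tested if it had a value in all 13 tumors and 10 counts or more in 4 or more of them, with edgeR 4.0.16 in R 4.3.3 (TMM, quasi-likelihood F test with robust dispersions, 2-sided, no covariate). Benjamini-Hochberg adjustment covered all tested genes. The SE is the fold change divided by the square root of F. CPM use TMM-scaled library sizes, and log2 CPM a prior count of 2. The p-values treat tumors as independent, although 2 pairs share a mouse. The counts of TP1 and TP3, from different mice in the labels, were also closer than those of any other pair of tumors within a model. Their chi-square per degree of freedom was 12.8, against 73.1 to 312 for other Tp-BCC pairs and 82.2 to 469 in GEM-BCC. The cause was not tested.

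GC content and length are medians over protein-coding transcripts in GENCODE vM21 (GRCm38), found for 54 of 54 replication genes and 97.98% of tested genes, and levels per kb use the longest of these transcripts. For GC adjustment the log2 CPM of a tumor minus the mean of each gene was smoothed against GC content (lowess, span 0.3), and the trend entered the fit as an offset. Promoter windows are those of RefSeq for GRCm38.p6, used apart from the coordinates of the counting. The fit was tested on simulated counts. Alternatives were DESeq2 1.42.0 and its size factors, library size alone, other filters, non-robust dispersions, sums per mouse, missing values set to 0, GC and length adjustment, either pair of Tp-BCC tumors alone, each tumor left out and a replicate block.

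In each of 8 roles the gene with the smallest adjusted p and that with the highest mean log2 CPM were given tumor by tumor, and from each further list the 3 with the smallest adjusted p and the 2 with the highest mean log2 CPM were named. Others were named after their values were seen. A few listed genes other than the 54 were not used here. The members, gene lists, roles and alternatives were chosen with earlier results of these data known.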

Additional observations from a re-analysis of the deposited data

Results flagged for a closer look

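Cdc45 in Tp-BCC tumors was singled out because 1 of the 4 tumors lay far from the others: TP4 had 24.9 CPM and the other 3 a median of 46.7, a gap of 0.85 of the range of log2 CPM. It was 1 of 30 groups checked (14 genes and the mean over the 54 genes, in each model), and chance flags about 1 in 20 such groups.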

How the results depend on the processing

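The number of replication genes higher in Tp-BCC was 20 to 26 with other scaling, filters, dispersions, DESeq2, summed counts per mouse, missing values set to 0 or a length adjustment, and the same 20 genes were kept each time. It was 34 with the GC trend removed (19 of the 20 kept), 10 with TP1 and TP3 alone (3 kept) and 21 with TP2 and TP4 alone (19 kept). The latter 2 fits gave 1484 and 6119 genes in all, against 2792, and TP2 and TP4 alone gave 7 replication genes lower and 1 with an absolute log2 fold change above 2 (Pola1). When single tumors were omitted, 12 (without TP2, 11 of them among the 20) to 25 genes (without GEM3) were higher, and 0 were lower or past a log2 fold change of 2, with a median of 0.59 to 0.77 and 1545 (without TP2) to 3020 genes in all (without GEM3). The number in all was 1836 without TP4. Among the 14 genes given tumor by tumor, Mcm7 was lost without TP2, Cdc45 without TP1, TP2 or TP3, Pcna and Lig1 without TP2 or TP4, and Gins2 without any of GEM2, GEM4, GEM6, GEM7, GEM9, TP1, TP2 or TP4. In the fits that lost these calls the log2 fold change was 0.75 for Mcm7, 0.77 to 0.83 for Cdc45 and 0.79 to 0.96 for Gins2. Without TP2 and without TP4 it was 0.91 and 0.76 for Pcna, and 0.91 and 0.96 for Lig1. Among the other members, leaving out TP2 also ended the calls of Fen1, Rrm2, Tk1 and Chaf1b, and those of Fen1 and Tk1 ended as well without GEM2, GEM4, GEM5, GEM7, GEM9 or TP4, and that of Tk1 without GEM6. Rrm1 turned negative with TP2 and TP4 alone (−1.50), without TP1 (−0.29), without TP3 (−0.28) and in the blocked fit (−0.30), and was 0.40 without TP4. The cause was not tested.

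Tumor numbers did not pair the models: the deviations of same-numbered tumors correlated at −0.38, −0.12, −0.10 and −0.18. With the tumor number as a replicate block on the 8 tumors numbered 1 to 4, 179 genes passed in all and 0 replication genes, and without the block the same 8 tumors gave 632 and 3. Both fits used fewer tumors. Depth was lower in Tp-BCC, with at least 34 counts for each replication gene in each tumor.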
